A study of Mus musculus with 45 samples.

Results

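The genes described here are the claudins, the desmosomal cadherins and plaque proteins, the connexins, and the occludin and zonula occludens genes, which build the tight junctions, desmosomes and gap junctions of the mouse. They were chosen by symbol: 58 of the 55367 gene symbols in the count table matched the names of these families, with 23 claudins, 16 connexins, 9 desmosomal cadherins, 6 desmosomal plaque genes and 4 occludin or zonula occludens genes. The rule reads symbols and no measured value, although the families themselves were picked with earlier results of these data known. The genes were followed through 45 libraries of 3′-tagged mRNA from female Balb/c mice, 3 libraries in each of 15 groups. Mice carried a primary tumor of 67NR, 4T07 or 4T1 cells or, as controls, no tumor. The 3 lines are sister lines from a single mouse mammary tumor. The study describes 67NR as nonmetastatic, 4T07 as invasive but nonmetastatic and 4T1 as metastatic. Each tumor was started with 2000000 cells in the fourth right mammary fat pad, and tissues were taken at day 14. Porous polycaprolactone scaffolds had been placed under the skin before the inoculation, in control mice as well, as an engineered niche into which host cells and disseminated tumor cells can move. Primary tumors, scaffolds, lungs and spleens were sequenced. The legends of the study count the libraries of a group as separate mice, while the labels do not tie the tissues of a mouse to each other. Each line stands for 1 cell line, and a difference between lines cannot be told apart from a difference between these particular lines as grown in the study.

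Claudins are membrane proteins that seal the space between epithelial or endothelial cells, and each tissue has its own set, so that some barriers are tight and others let ions and water through. Occludin sits in the same strands, and the zonula occludens proteins, among them Tjp1, anchor them to actin. In desmosomes the cadherins desmoglein and desmocollin join neighbouring cells, while plakoglobin (Jup), the plakophilins and desmoplakin (Dsp) tie them to keratin filaments. Connexins form gap junction channels through which cells exchange ions and small molecules. In mammary carcinoma, loss of such junctions is part of what is described as epithelial-mesenchymal transition, and repressors of the Zeb and Snail families bind CAGGTG sequences in promoters of epithelial genes, while Grainyhead-like factors bind AACCGGTT and activate them.

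Because Cldn3, Cldn4 and Cldn7 were higher in 4T1 than in 67NR tumors while Cldn6 went the other way (values below), the 250 bases before their transcription start are shown. Sequences are from the RefSeq annotation of GRCm38.p6, read 5′ to 3′ on the strand of the gene, with each CAGGTG on either strand (CACCTG is its complement) in capitals.
Cldn4, chr5:134946935-134947184, minus strand: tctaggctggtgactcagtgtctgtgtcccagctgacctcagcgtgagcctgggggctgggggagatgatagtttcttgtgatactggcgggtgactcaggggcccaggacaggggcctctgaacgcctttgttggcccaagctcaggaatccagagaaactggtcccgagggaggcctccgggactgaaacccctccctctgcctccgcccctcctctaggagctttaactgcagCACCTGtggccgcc
Cldn3, chr5:134985964-134986213, plus strand: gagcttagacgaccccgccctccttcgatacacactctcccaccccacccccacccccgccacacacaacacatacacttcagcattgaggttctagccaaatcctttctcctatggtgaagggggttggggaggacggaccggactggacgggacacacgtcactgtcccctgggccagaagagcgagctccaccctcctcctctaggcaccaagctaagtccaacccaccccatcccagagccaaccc
Cldn7, chr11:69965171-69965420, plus strand: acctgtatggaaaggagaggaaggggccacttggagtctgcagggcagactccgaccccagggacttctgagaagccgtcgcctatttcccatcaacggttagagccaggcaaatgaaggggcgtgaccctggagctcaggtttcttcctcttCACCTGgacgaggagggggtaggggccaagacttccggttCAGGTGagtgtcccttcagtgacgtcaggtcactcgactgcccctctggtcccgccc
Cldn6, chr17:23679115-23679364, plus strand: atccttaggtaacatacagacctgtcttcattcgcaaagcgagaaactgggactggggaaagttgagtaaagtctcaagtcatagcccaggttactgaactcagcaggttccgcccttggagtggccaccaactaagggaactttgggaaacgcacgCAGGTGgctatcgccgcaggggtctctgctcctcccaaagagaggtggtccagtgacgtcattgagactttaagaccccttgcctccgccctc
The Cldn4 match began 14 bases before the start, the Cldn7 matches 97 and 57 bases before it, and the Cldn6 match 93 bases before it. Cldn3 had no match in this window. Of other genes higher in 4T1 than in 67NR tumors, Cldn2, Dsp and Jup had no match either, while Ocln had matches 213 and 68 bases before a start. Whether these sequences have a part in the differences between tumors was not tested. RefSeq lists another start for Cldn7, whose window held no match. The promoter table held 51 starts of 36 of the 58 genes, and 11 of the 51 windows (21.6%) held CAGGTG, against 5657 of the 32851 windows of all genes (17.2%). Cldn9, the claudin at the highest level in 67NR tumors, was not among the 36. AACCGGTT was in none of the 51 windows and in 38 of all windows (0.116%), and the 2 motifs do not overlap. Claudin genes often lie side by side: in the RefSeq order of protein coding genes Cldn4 is next to Cldn3, and Cldn6 is next to Cldn9.

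Library totals ran from 3491888 to 8175380 counts (median 5149589), so 3 counts, the level used as a floor, corresponded to 0.367 to 0.859 CPM, the unit of all levels here (counts of a gene per 1000000 counts of its library). Since the assay tags 1 end of each transcript, CPM were not divided by length. A gene was tested in a tissue when it had more than 10 counts over the libraries of that tissue, which held for 38 of the 58 genes in tumors, 41 in scaffolds, 43 in lungs and 32 in spleens, 47 in at least 1 tissue and 30 in all 4. The claudins Cldn22 and Cldn24 had no count in any library. Tissue labels were checked against marker genes: the summed level of 9 alveolar and airway genes was at least 6028 CPM in every lung and at most 463 CPM elsewhere, 5 B cell genes summed to 224 to 949 CPM in spleens, and 7 fibroblast genes to at least 8321 CPM in scaffolds. The last 2 sums did not separate every library, since B cell genes reached 321 to 431 CPM in 4T07 lungs and fibroblast genes up to 8895 CPM in 4T1 tumors. The epithelial markers (8 genes, among them Epcam, Cdh1 and Krt8) summed to 24.6 to 41.1 CPM in 67NR tumors, 185 to 253 CPM in 4T07 tumors and 1229 to 1356 CPM in 4T1 tumors. The 67NR range lay close to that of spleens, which were at 8.15 to 27.9 CPM.

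Summed over all 58 genes, junction transcripts were at 1920 to 2163 CPM in control lungs, 180 to 233 CPM in control scaffolds and 305 to 348 CPM in control spleens. In tumors they were at 571 to 582 CPM for 67NR, 490 to 553 CPM for 4T07 and 1162 to 1300 CPM for 4T1. The leading genes were partly shared between tissues. Jup was among them in every tissue, and Pkp4 and Gja1 were among them in tumors, scaffolds and spleens. In lungs the leading genes were Cldn18, the claudin of alveolar epithelium (median of the 12 libraries 764 CPM, range 141 to 981), Cldn5, the claudin of endothelium (224 CPM, 113 to 310), Jup (160 CPM), Dsp (129 CPM), Tjp1 (106 CPM) and Cldn7 (88.5 CPM). In spleens Cldn13, a claudin of mouse erythroid cells, led with a median of 121 CPM (44.3 to 220), followed by Pkp4 (42.2 CPM), Jup (32.8 CPM), Gja1 (27.3 CPM), Pkp3 (23.0 CPM) and Cldn5 (17.3 CPM). Scaffolds were led by Pkp4 (57.5 CPM, 44.9 to 62.7), a plakophilin relative found at adherens junctions, and Gja1 (29.2 CPM, 24.2 to 39.2), the widely expressed connexin of fibroblasts and muscle. Gjc1 (15.5 CPM), Jup (14.6 CPM) and Pkp2 (11.6 CPM) were also among the leading genes, by median, and their ranges overlapped. Tumors were led by Gja1 (192 CPM, 107 to 383) and Pkp4 (65.8 CPM, 41.9 to 98.6). Of the other 4 leading tumor genes by mean, Cldn4, Cldn9, Jup and Pkp3, the first pair was spread widely between the lines: Cldn4 ran from 1.41 to 161 CPM and Cldn9 from 0 to 136 CPM.

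**Figure D1:**
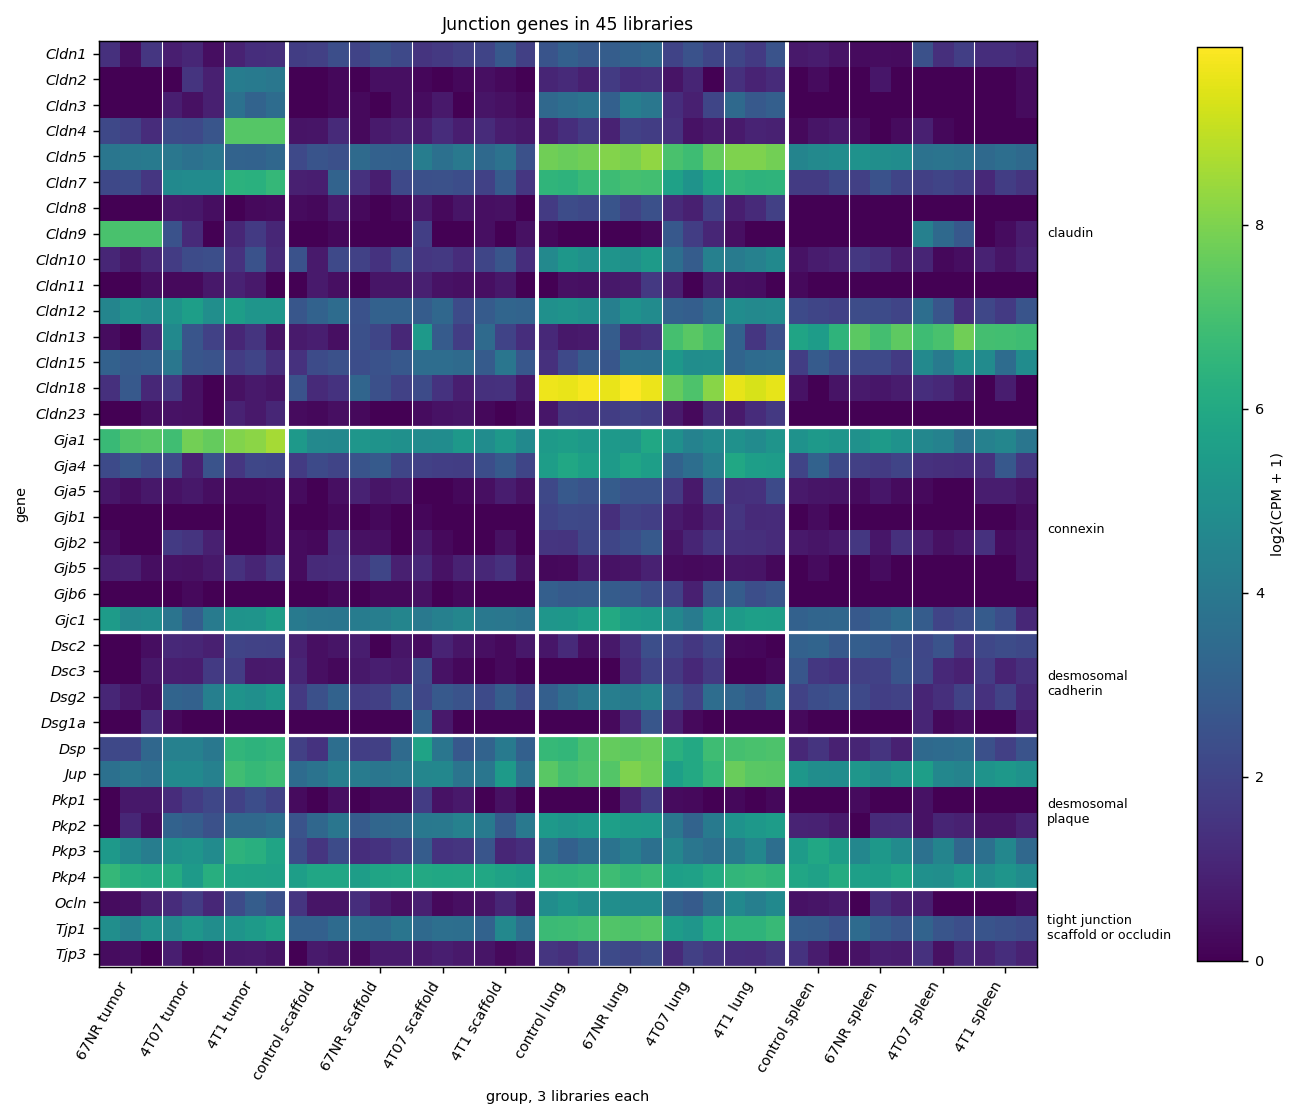
Heat map of log2(CPM + 1) for 36 junction genes, each of which reached 2 CPM in at least 1 library (rows, by family), in the 45 libraries (columns, by tissue and group). The lungs show the fullest set of claudins, and the 3 columns of 4T07 lungs are green where the other lungs are yellow for Cldn18, at 141 to 291 CPM.

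The first question was how the 3 primary tumors differ, which for these genes asks how far each line keeps an epithelial set of junctions. The tumors differed both in how many junction genes were measured at a higher level and in which claudin was abundant. Of the 38 tested genes, 14 had a higher level in 4T1 than in 67NR tumors and 6 a lower one (edgeR's quasi-likelihood test, adjusted p under 0.05 and fold over 2), where 11.6% of all tested genes were higher and 9.07% lower by the same threshold. Between 4T07 and 67NR tumors 12 were higher and 4 lower, against 17.1% and 11.8% of all genes, and between 4T1 and 4T07 tumors 12 were higher and 3 lower, against 3.82% and 4.79% of all genes. The median log2 fold change of the 38 genes was 1.12 for 4T1 against 67NR, 0.30 for 4T07 against 67NR and 0.71 for 4T1 against 4T07, where the medians of all tested genes were 0.09, 0.16 and -0.05. These comparisons share groups with each other. Whether fewer cells of a type or less RNA per cell lies behind a lower level cannot be told apart in bulk tissue.

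Cldn4, a barrier-forming claudin of simple epithelia, was the claudin at the highest level in 4T1 tumors, at 158, 159 and 161 CPM. It was at 3.49, 2.80 and 1.41 CPM in 67NR tumors and at 3.81, 3.63 and 5.08 CPM in 4T07 tumors. The 4T1 libraries stood far above the other 6, whose ranges lay close together. The log2 fold change was 5.74 (SE 0.25, adjusted p = 9.89e-10) against 67NR and 5.32 (SE 0.23, adjusted p = 2.83e-09) against 4T07. Its neighbour Cldn3, also a barrier claudin, had no count in the 3 67NR tumors, was at 0.803, 0.363 and 0.847 CPM in 4T07 tumors, and reached 12.1, 7.99 and 10.6 CPM in 4T1 tumors. That is at least 12.3-fold higher in 4T1 than the floor of 3 counts per library in 67NR tumors, and 3.98 on the log2 scale above 4T07 (SE 0.45, adjusted p = 6.1e-05).

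Cldn7, which is found along the whole lateral membrane of epithelial cells, took a different path, with 3 separate levels. It was at 3.49, 3.64 and 1.98 CPM in 67NR, at 25.1, 26.7 and 26.8 CPM in 4T07 and at 83.4, 79.1 and 97.8 CPM in 4T1 tumors. No library of any line overlapped another line. The steps were 2.85 (SE 0.25, adjusted p = 4.99e-07) from 67NR to 4T07 and 1.78 (SE 0.19, adjusted p = 1.46e-05) from 4T07 to 4T1 on the log2 scale. Cldn2, a pore-forming claudin of leaky epithelia, had no count in 67NR tumors, was at 0, 1.81 and 0.847 CPM in 4T07 and at 17.0, 16.0 and 14.2 CPM in 4T1 tumors, at least 19.0-fold above the 67NR floor and 4.11 above 4T07 on the log2 scale (SE 0.54, adjusted p = 0.000226).

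The 67NR tumors were not without claudins. Cldn9, known from the inner ear and other specialised epithelia, was at 136, 133 and 134 CPM in 67NR tumors, near the level of Cldn4 in 4T1 tumors. It was at 4.62, 1.27 and 0 CPM in 4T07 and at 1.10, 2.25 and 1.08 CPM in 4T1 tumors. The groups were far apart, with log2 fold changes of -6.23 (SE 0.45, adjusted p = 9.1e-08) for 4T07 and -6.69 (SE 0.47, adjusted p = 4.83e-08) for 4T1 against 67NR. Cldn6, its neighbour and a claudin of early embryonic epithelium, was low, at 0.806, 1.12 and 1.98 CPM in 67NR tumors and absent from the counts of 4T07 tumors. In 4T1 tumors it was at 0, 0.205 and 0.432 CPM, a ratio of 67NR to 4T1 of 6.45 with a counting interval of 1.8 to 35.0. Cldn12, a claudin without the usual scaffold-binding end, was between 22.3 and 46.1 CPM in all 9 tumors and passed in no comparison.

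Occludin (Ocln) was at 3.84, 6.56 and 4.32 CPM in 4T1 and at most 2.36 CPM in the other lines, and it passed against both (3.14 and 1.58 on the log2 scale). Tjp1, a zonula occludens protein that binds claudins and actin, lay between 19.6 and 52.5 CPM and passed in no comparison of tumors.

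**Figure D2:**
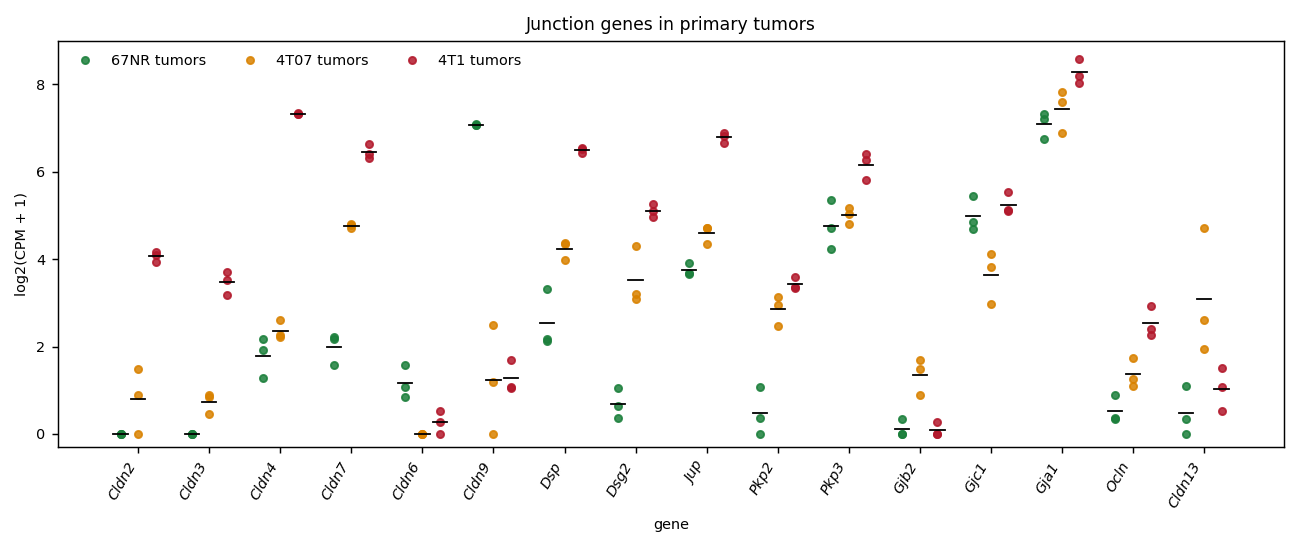
Levels of 16 junction genes in the 9 tumors, as log2(CPM + 1) on the vertical axis, with 1 point per library, colored by line, and a bar at the mean of the 3 log2 values. Cldn4 separates 4T1 from both other lines, Cldn7 shows 3 separate levels, and Cldn9 is high in 67NR alone among the lines.

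The desmosome genes differed in a graded way. Of the 9 tested desmosomal genes (3 cadherins and 6 plaque genes), 7 were higher in 4T1 than in 67NR tumors, 5 in 4T07 than in 67NR, and 4 in 4T1 than in 4T07, and none was lower. Of all tested genes, 11.6%, 17.1% and 3.82% were higher in these comparisons. Desmoplakin, the link to keratin, was at 3.49, 3.36 and 9.03 CPM in 67NR, 19.5, 19.6 and 14.7 CPM in 4T07, and 91.6, 85.1 and 91.5 CPM in 4T1 tumors. The 3 ranges did not overlap, and the log2 fold changes for Dsp were 1.52 (SE 0.30, adjusted p = 0.000916) for 4T07 and 3.88 (SE 0.29, adjusted p = 1.13e-07) for 4T1 against 67NR, and 2.36 (SE 0.25, adjusted p = 1.66e-05) between 4T1 and 4T07. Desmoglein 2 (Dsg2), the cadherin of simple epithelia, was at 1.08, 0.560 and 0.282 CPM in 67NR, 8.23, 7.44 and 18.6 CPM in 4T07, and 33.3, 30.3 and 37.3 CPM in 4T1 tumors. On the log2 scale Dsg2 exceeded 67NR by 3.82 (SE 0.52, adjusted p = 3.43e-05) and 5.46 (SE 0.48, adjusted p = 5.24e-07), and 1.64 (SE 0.31) between 4T1 and 4T07.

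Plakoglobin, which serves desmosomes and adherens junctions alike, was at 11.8, 14.0 and 11.6 CPM in 67NR, 25.1, 25.0 and 19.5 CPM in 4T07, and 118, 101 and 111 CPM in 4T1 tumors. Jup passed in 4T1 against 67NR (2.94, SE 0.19, adjusted p = 2.12e-08) and against 4T07 (2.29, SE 0.18, adjusted p = 8.06e-07), while the step between 67NR and 4T07, whose libraries did not overlap, stayed below a fold of 2. The plakophilins differed among themselves. Pkp2, the plakophilin of heart and simple epithelia, was at 0, 1.12 and 0.282 CPM in 67NR, 7.83, 6.71 and 4.52 CPM in 4T07 and 9.14, 9.22 and 11.0 CPM in 4T1, and it passed in both lines against 67NR (3.47 and 4.13). Pkp3 was at 39.8, 25.2 and 17.8 CPM in 67NR, 31.9, 35.2 and 27.1 CPM in 4T07 and 83.9, 76.0 and 54.8 CPM in 4T1, so that only 4T1 stood apart (1.18, SE 0.24, and 1.23, SE 0.24). Pkp4 had its highest mean in 67NR, at 98.6, 72.7 and 65.8 CPM, against 50.9 to 54.1 CPM in 4T1, a log2 difference of -0.79 (SE 0.21, adjusted p = 0.00983) that is below the fold threshold.

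The connexins described here differed in pattern from each other. Gjc1, a connexin of smooth muscle and vessel walls, was lower in 4T07 tumors, at 13.0, 6.89 and 16.4 CPM, than in 67NR (42.7, 24.9 and 27.7 CPM) or 4T1 (33.1, 34.0 and 45.1 CPM). It passed against both, by -1.65 (SE 0.29, adjusted p = 0.000356) for 4T07 against 67NR and 1.70 (SE 0.29, adjusted p = 0.00094) for 4T1 against 4T07. Gja1 was at 107, 148 and 159 CPM in 67NR, 117, 228 and 192 CPM in 4T07 and 262, 294 and 383 CPM in 4T1 tumors. The 4T1 libraries were above the other 6, with a log2 difference of 0.98 against 67NR (SE 0.24, adjusted p = 0.00627) that just missed the fold threshold.

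**Figure D3:**
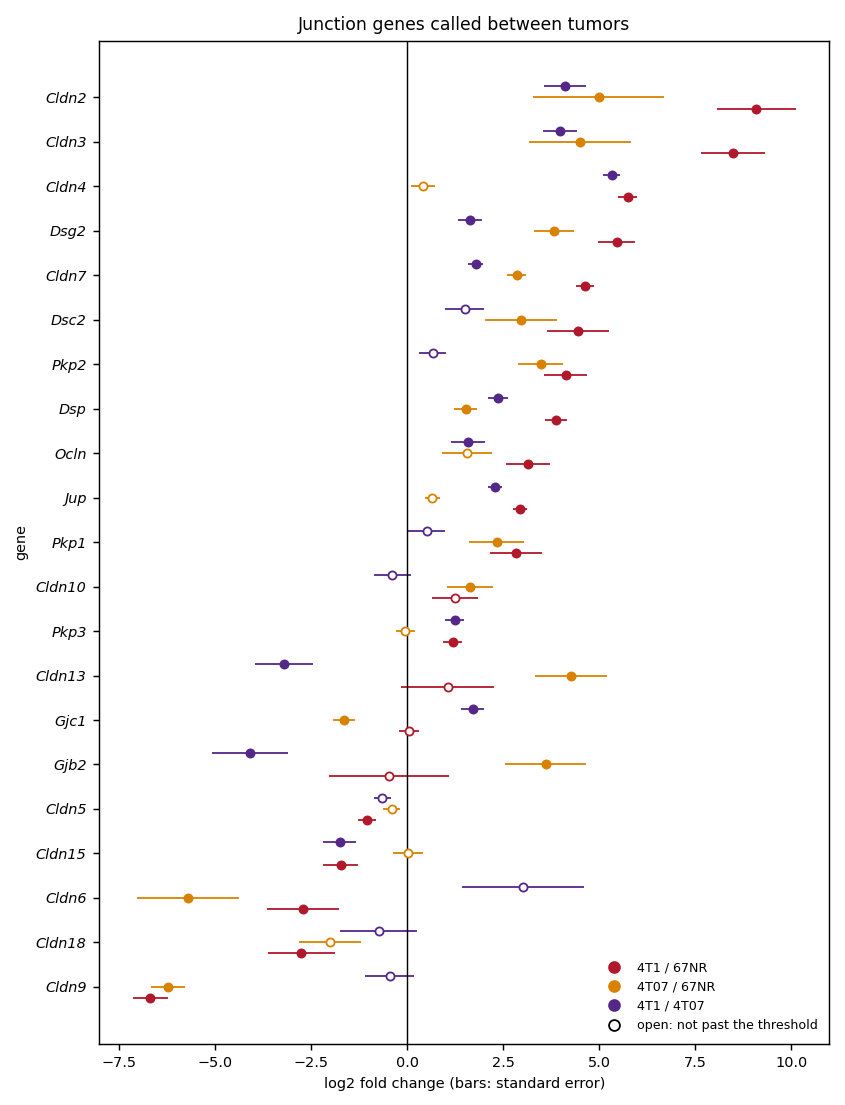
Log2 fold changes (horizontal axis, with bars of 1 SE from edgeR) of junction genes in the 3 comparisons of tumors. Filled points passed the threshold and open points did not: desmosomal genes lie to the right of 0 where they passed, while claudins and connexins passed on both sides, with Cldn9 at -6.69 and Cldn4 at 5.74 for 4T1 against 67NR. Cldn2 and Cldn3, which had no count in 67NR tumors, lie farthest right at fitted values that depend on the prior count.

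Other junction and epithelial genes were counted from lists. Of 20 tested tight junction genes outside the families above, 11 were higher and none lower in 4T1 than in 67NR tumors, among them the junction adaptor Cgnl1 (4.22 on the log2 scale) and the tricellular junction genes Marveld2 (4.07) and Lsr (3.09). In 4T07 against 67NR 7 were higher and 1 lower, and in 4T1 against 4T07 7 were higher. Desmosome and cornified envelope partners behaved alike, with 7 of 8 higher in 4T1 than in 67NR, including the simple epithelial keratins Krt8 (6.52) and Krt18 (6.79), the desmosomal membrane gene Perp (4.90) and the plakin Ppl (5.03), while Cdsn, a corneodesmosome gene, was lower (-5.80). Against 67NR, 6 of these 8 were higher and 1 lower in 4T07, and between 4T1 and 4T07 4 were higher and 1 lower. Of 14 adherens junction genes 4 were higher and 1 lower in 4T1 than in 67NR: E-cadherin (Cdh1) was at a mean of 8.94, 64.5 and 162 CPM in 67NR, 4T07 and 4T1, and N-cadherin (Cdh2) was 3.33 lower on the log2 scale in 4T1 (log2 fold change -3.33). For 4T07 against 67NR the counts of this list were 4 higher and 3 lower, and for 4T1 against 4T07 2 higher. Of 2 pannexins tested, 2 were higher in 4T07 and 1 in 4T1 than in 67NR.

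Of 12 transcription and splicing regulators of epithelial genes, 5 had higher levels in 4T1 than in 67NR tumors and 2 lower levels, 4 were higher and 3 lower in 4T07 than in 67NR, and 4 higher and 2 lower in 4T1 than in 4T07. Grhl2, a Grainyhead-like activator, was at a mean of 1.93, 1.66 and 16.6 CPM in 67NR, 4T07 and 4T1, and the splicing regulator Esrp1 at 0.464, 1.58 and 11.4 CPM. Zeb1, a repressor that binds CAGGTG, was at a mean of 93.5, 41.7 and 40.0 CPM, 1.42 lower in 4T1 than in 67NR on the log2 scale (log2 fold change -1.42), whereas the repressor Snai1 was higher (2.00) and Snai2 lower (-1.14). The epithelial markers passed in the higher direction for 8 of 8 genes in 4T1 and 6 of 8 in 4T07 against 67NR. Fibroblast markers also moved, from 929 to 1136 CPM in 67NR to 4800 to 7117 CPM in 4T07 and 5739 to 8895 CPM in 4T1 tumors. The part of these regulators and cell types in the junction results was not tested.

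Some tumor results moved with a single library. Cldn13 was at 25.1, 5.08 and 2.82 CPM in 4T07 tumors against at most 1.84 CPM in the other lines, and the first of these libraries (number 31) also had the highest erythroid sum of the tumors, 319 CPM. Cldn15, a pore-forming claudin of the intestine, was at 14.4 CPM in that library and at 1.51 to 7.53 CPM in the other 8. Cldn13 passed in 4T07 against 67NR (4.26, SE 0.93, adjusted p = 0.00195) and Cldn15 in 4T1 against 67NR (-1.74, SE 0.45, adjusted p = 0.00761), and both calls held under every alternative that could be fitted, with Cldn13 at 2.76 without library 31. Both also passed in 4T1 against 4T07, at -3.21 (SE 0.75, adjusted p = 0.00953) for Cldn13 and -1.76 (SE 0.43, adjusted p = 0.0123) for Cldn15. Without library 31 these were -1.75 (adjusted p = 0.12) and -1.05 (adjusted p = 0.105), still past a fold of 2 but no longer past the p threshold. The Cldn15 difference was -1.77 and -1.52 without the 4T1 tumors numbered 43 or 45 (adjusted p = 0.0512 and 0.0534). Cldn5 was 1.05 lower on the log2 scale in 4T1 than in 67NR tumors (log2 fold change -1.05, SE 0.23, adjusted p = 0.00248), at 7.79 to 9.07 CPM against 14.0 to 15.8 CPM, while the sum of 8 endothelial markers was at 309 to 319 CPM in 4T1 and 308 to 498 CPM in 67NR.

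Tumors were next set against scaffolds of mice with the same lines, averaged over the lines, to see which junction genes go with the tumor rather than an implant. Of 43 tested genes 12 were higher in tumors and 4 lower, where 12.3% of all genes were higher and 16.4% lower and the median of all genes was -0.12. Gja1 was higher in every tumor (107 to 383 CPM) than in every scaffold of these mice (25.1 to 38.6 CPM), by 2.54 on the log2 scale (SE 0.14, adjusted p = 2.66e-13). Pkp3 (3.79, SE 0.25, adjusted p = 9.35e-12), Cldn4 (3.81, SE 0.22) and Cldn12 (2.19, SE 0.16) likewise had no overlap between the 9 tumors and the 9 scaffolds. Cldn9 (5.26, SE 0.68) and Cldn4 passed as averages over lines that differ, as described above. For Cldn4 the lowest tumor was at 1.41 CPM and the highest of all scaffolds at 1.38 CPM, while the highest tumor was at 161 CPM. Lower in tumors were Pkp2 and Cldn13. Pkp2 (-2.03, SE 0.26, adjusted p = 4.11e-07) was at 5.97 to 19.4 CPM in these scaffolds and at 0 to 11.0 CPM in tumors. Pkp2 too passed as an average over lines that differ. Its levels in 4T1 tumors lay inside the scaffold range and those in 4T07 tumors overlapped it. All tumors of the remaining line lay below that range. The Cldn13 call (-1.86, SE 0.63, adjusted p = 0.0165) was lost without scaffold 22 of 4T07 (-1.22, adjusted p = 0.0586) or scaffold 34 of 4T1 (-1.48, adjusted p = 0.0603).

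The tissues of tumor-free mice differed in their levels of these genes, and most of the differences that passed against lungs were higher in lungs. Of 40 genes tested in the 9 control libraries, 25 were higher and 4 lower in lungs than in spleens (19.1% and 17.7% of all genes), 24 higher and 2 lower in lungs than in scaffolds (16.7% and 13.3%), and 10 higher and 7 lower in scaffolds than in spleens (15.6% and 15.9%). Cldn18 was at 822, 774 and 901 CPM in control lungs, at 4.82, 1.27 and 1.73 CPM in scaffolds, and at 0.388, 0 and 0.431 CPM in spleens. Lungs thus exceeded spleens by 11.37 (SE 0.47, adjusted p = 1.37e-10) and scaffolds by 8.17 (SE 0.37, adjusted p = 2.71e-10) on the log2 scale. The control spleens held 4 counts of Cldn18 in all and lay under their floor of 0.641 CPM. The fitted difference from spleens therefore depends on the prior count. Cldn3 was at 9.24, 11.0 and 12.8 CPM in lungs and had no count in control spleens, at least 17.2-fold more, and the connexin Gjb6 was at 6.13 to 7.15 CPM in lungs with none in spleens, at least 10.1-fold more.

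Dsp was at 101, 93.6 and 133 CPM in control lungs against 0.862 to 1.85 CPM in spleens (6.35, SE 0.51), Ocln at 28.0 to 35.7 CPM against 0.388 to 0.647 CPM (5.84, SE 0.42), and Cldn10 at 24.4 to 37.7 CPM against 0.388 to 0.862 CPM (5.52, SE 0.52). In control spleens Ocln and Cldn10 were near the floor. Against scaffolds, Cldn5 was higher in lungs by 5.39 (SE 0.18), Ocln by 4.88 (SE 0.37) and Cldn7 by 4.56 (SE 0.47). Spleens in turn had more Cldn13 than lungs, at 55.1, 44.3 and 87.8 CPM against 0.541 to 1.22 CPM (-6.27 for lungs against spleens, SE 0.36), and more Pkp3, at 42.7, 59.3 and 45.3 CPM against 7.21 to 11.2 CPM (-2.39, SE 0.24). They also had more desmocollin 2 (Dsc2) than lungs (-3.38, SE 0.45), at 5.82 to 8.31 CPM. Scaffolds against spleens were lower in Cldn13 (-6.54, SE 0.37), Pkp3 (-3.79, SE 0.28), Dsc2 (-3.57, SE 0.48), Cldn5 (-2.31, SE 0.18) and Jup (-1.02, SE 0.22), and higher in Pkp2 (3.59, SE 0.40), Dsp (2.21, SE 0.62, with overlapping groups) and Cldn12 (1.44, SE 0.27). Without control scaffold 3, Dsp was at 0.96 (adjusted p = 0.095) between scaffolds and spleens, and Jup came to -0.83 to -0.96, under the fold threshold, without scaffolds 1 or 2 or spleen 7.

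The lungs, the organ that 4T1 cells colonise, were compared with those of tumor-free mice. The 4T07 lungs stood apart: 12 of 43 tested genes were lower and 5 higher than in control lungs, where 13.7% of all tested genes were lower and 15.3% higher. The median of the 43 genes was -0.66 and that of all genes -0.01. In 4T1 lungs 2 of the 43 were higher and 1 lower (3.56% and 1.05% of all genes), and in 67NR lungs 5 were higher and 0 lower (2.52% and 1.73%). All 3 comparisons share the control lungs. Direct comparison of 4T1 with 4T07 lungs gave 9 genes higher in 4T1 and 5 lower, against 11.6% and 11.9% of all genes. These counts moved with single libraries: without control lung 4 they were 2 in 67NR and 1 in 4T1 lungs, without 4T1 lung 39 the 4T1 count was 6, and without 4T07 lung 27 the count between 4T1 and 4T07 lungs was 22.

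Cldn18 was at 190, 141 and 291 CPM in 4T07 lungs, 822, 774 and 901 CPM in control lungs, 790, 981 and 799 CPM in 67NR lungs and 754, 645 and 752 CPM in 4T1 lungs. The 4T07 libraries were below all others, by 1.94 on the log2 scale against control (log2 fold change -1.94, SE 0.20, adjusted p = 1.37e-07), and 4T1 exceeded 4T07 by 1.74 (SE 0.20, adjusted p = 7.34e-07). Cldn3, at 1.48, 0.826 and 3.25 CPM in 4T07 against 9.24 to 12.8 CPM in control lungs, was lower by 2.51 (log2 fold change -2.51, SE 0.41), and Cldn12, at 6.81 to 10.4 CPM against 30.3 to 33.7 CPM, by 1.88 (log2 fold change -1.88, SE 0.21). Gja4, a connexin of arterial endothelium, was at 7.83, 11.1 and 18.0 CPM in 4T07 and at 45.5, 59.7 and 49.2 CPM in control lungs, a log2 difference of -2.0 (SE 0.23, adjusted p = 4.79e-07), and 4T1 lungs exceeded 4T07 lungs by 1.97 (SE 0.23).

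Further falls in 4T07 lungs covered all the families but the desmosomal cadherins: Ocln (-1.78) and Tjp1 (-1.15) among the tight junction genes, Pkp2 (-1.50) and Jup (-1.03) in the desmosomal plaque, Gjb1 (-2.29) and Gjb6 (-1.20) among the connexins, and Cldn10 (-1.31). Dsp, at 77.9, 63.0 and 115 CPM against 101, 93.6 and 133 CPM, did not pass (-0.29, SE 0.18, adjusted p = 0.191), and neither Cldn5 (-0.48, SE 0.16) nor Cldn7 (-0.89, SE 0.17) reached a fold of 2. Other junction genes were lower too: 14 of 20 other tight junction genes, 8 of 14 adherens junction genes (1 higher), 5 of 8 desmosome partners (2 higher) and 8 of 13 epithelial regulators passed in the lower direction in 4T07 lungs, and none of these lists had a gene that passed in 4T1 lungs. Of all tested genes, 13.7% were lower and 15.3% higher in 4T07 lungs.

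Cell type markers moved with these falls. The alveolar and airway sum was 36015 to 38259 CPM in control and 6028 to 14926 CPM in 4T07 lungs, with 6 of its 9 genes lower, and the sum of 8 endothelial genes was 3547 to 3992 CPM and 1162 to 1847 CPM, with 6 lower. As a share of the alveolar and airway sum, Cldn18 was at 2.28, 2.10 and 2.35% in control lungs and 1.58, 2.33 and 1.95% in 4T07 lungs, so the shares overlapped where the CPM did not. Those of Ocln overlapped as well. The Cldn3 share was lower in 4T07 than in control lungs (0.0123 to 0.0218% against 0.0257 to 0.0334%). Shares of Cldn7 (0.392 to 0.551% against 0.228 to 0.268%) and Dsp (0.648 to 1.04% against 0.253 to 0.347%) were higher. Cldn5 as a share of the endothelial sum was higher in 4T07 lungs (8.86, 9.76 and 10.4%) than in control lungs (6.21, 5.76 and 5.45%), whereas Gja4 was lower (0.511, 0.960 and 0.975% against 1.28, 1.68 and 1.23%). These shares are descriptions, and the part of the cell makeup in the falls was not tested.

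**Figure D4:**
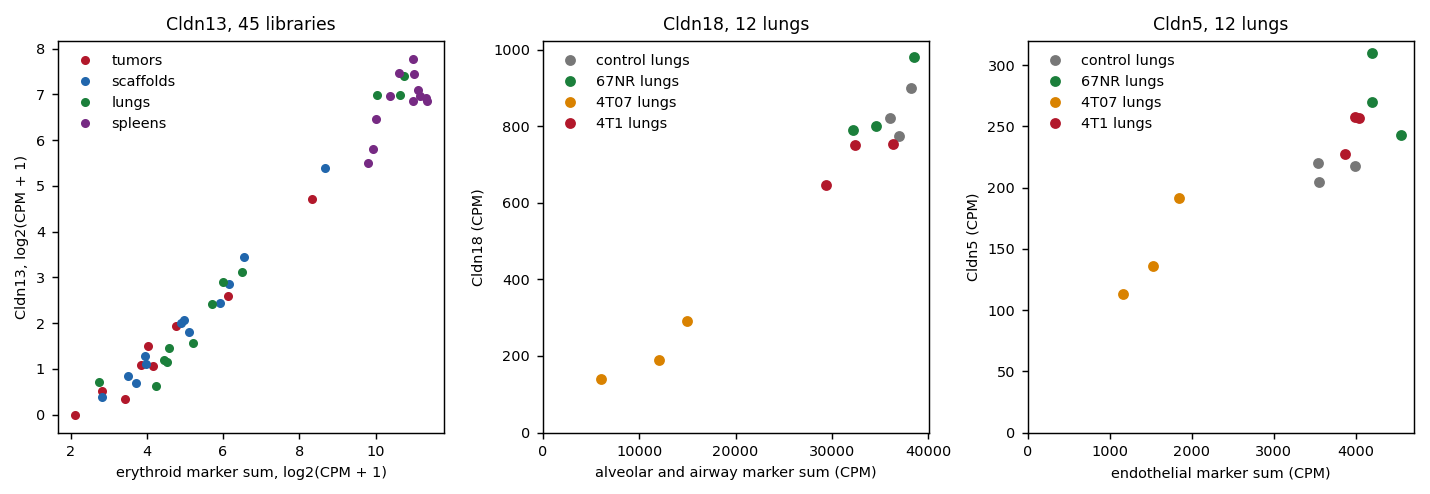
Levels of 3 claudins against the summed CPM of the markers of a cell type, with 1 point per library: Cldn13 against erythroid markers in the 45 libraries, both as log2(CPM + 1) and colored by tissue, and, in CPM on linear axes and colored by group, Cldn18 against alveolar and airway markers and Cldn5 against endothelial markers in the 12 lungs. The 4T07 lungs, with Cldn18 at 141 to 291 CPM, lie at the low end of the alveolar sum, and the spleens and 3 lungs (those of 4T07 mice, with Cldn13 at 126 to 170 CPM) hold the high end of both Cldn13 and the erythroid sum.

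Against the falls, Cldn13 rose in 4T07 lungs from 1.22, 0.541 and 0.647 CPM to 127, 170 and 126 CPM, a log2 fold change of 7.48 (SE 0.45, adjusted p = 6.73e-11). Spleens lay in the same range, at 44.3 to 220 CPM. In 4T1 lungs it was at 7.73, 1.98 and 4.35 CPM (2.51, SE 0.61, adjusted p = 0.0134), above control in each library. The erythroid markers (5 genes in the table) summed to 5.66 to 22.0 CPM in control, 36.2 to 88.7 CPM in 4T1 and 1051 to 1715 CPM in 4T07 lungs. Neutrophil markers summed to 237 to 304 CPM in control, 22066 to 26106 CPM in 4T07 and 11511 to 27222 CPM in 4T1 lungs, so that 4T1 lungs overlapped 4T07 lungs in this sum and not in Cldn13. Markers of exocrine pancreas, a tissue that is no part of the lung, summed to 1.05 to 1.46 CPM in control and 206 to 291 CPM in 4T07 lungs. Their part in the result was not tested.

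Cldn15 was at 38.5, 28.5 and 29.1 CPM in 4T07 lungs, 8.21, 10.0 and 10.8 CPM in 4T1, 5.36, 12.2 and 11.6 CPM in 67NR and 1.57, 3.61 and 6.31 CPM in control lungs. The 4T07 libraries were above all others, with log2 fold changes of 3.11 (SE 0.33, adjusted p = 1.47e-07) for 4T07 and 1.34 (SE 0.34, adjusted p = 0.019) for 4T1 against control, and the 67NR libraries overlapped control (1.25, SE 0.35, adjusted p = 0.0303). Without control lung 4 the Cldn15 call of 4T1 lungs was lost (0.98, adjusted p = 0.112), and that of 67NR lungs was lost without control lung 4 or 5 or 67NR lung 14 or 15 (0.90 to 1.20, adjusted p = 0.113 to 0.164), while the 4T07 call held without any 1 library. Cldn9, abundant in 67NR tumors, was at 5.72, 2.48 and 1.08 CPM in 4T07 lungs, with 44 counts in all, against 1 count in the control lungs, a ratio of 54.2 with a counting interval of 9.23 to 2188. The desmocollins Dsc2 (2.96, 2.06 and 3.25 CPM) and Dsc3 (2.12, 1.24 and 2.17 CPM) were also higher in 4T07 lungs than in control lungs, where Dsc3 had no count.

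Of the 5 genes higher in 67NR than in control lungs, 4 were genes of stratified epithelium, Dsg1a, Dsg1b, Dsc3 and Pkp1, named here after their values were seen, since all were at low levels. Dsg1a was at 0.192, 1.30 and 5.35 CPM in 67NR lungs and had no count in control lungs, and the keratinocyte markers of skin summed to 12.3, 51.0 and 93.9 CPM in these same libraries against 8.66 to 11.7 CPM in control lungs. The third library (number 15) had the highest level of each. Without it 0 of the 43 genes passed. Reads of the near-identical genes Dsg1a and Dsg1b cannot be separated with certainty.

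**Figure D5:**
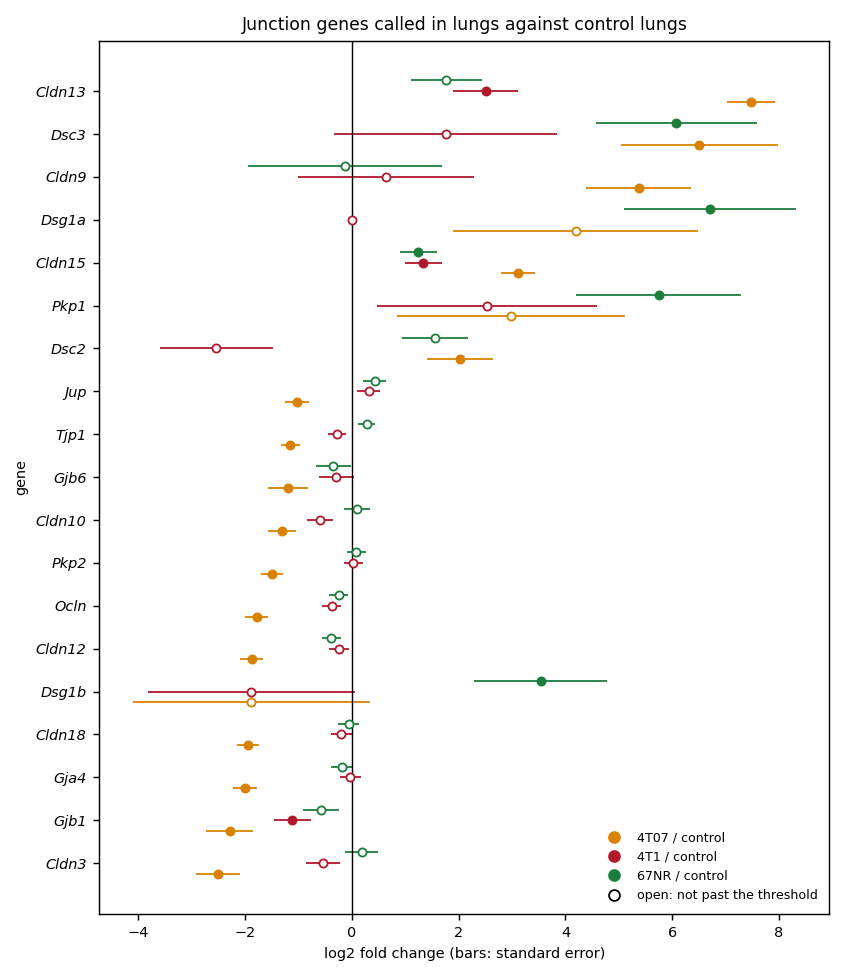
Log2 fold changes (horizontal axis, bars of 1 SE) of junction genes in 67NR, 4T07 and 4T1 lungs against control lungs, with filled points past the threshold. In 4T07 lungs most filled points lie left of 0, at -1.94 for Cldn18, and Cldn13 is at 7.48, while 4T1 and 67NR lungs have few filled points.

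Scaffolds were compared next, to ask whether the implant shows such differences as well. Few junction genes passed. In 67NR and in 4T1 scaffolds 0 of 41 tested genes passed against control by edgeR's quasi-likelihood test (1 and 5 at an unadjusted p under 0.05), and DESeq2 gave 0 as well in both. Of all genes, 0.00% were higher and 0.00% lower in 67NR, and 0.0135% higher and 0.00903% lower in 4T1 scaffolds. Between 4T1 and 4T07 scaffolds 0 passed by edgeR and by DESeq2 (9 at an unadjusted p under 0.05 by edgeR), where 0.636% of all genes were higher and 0.366% lower. Without a count filter, 1 gene passed in 67NR, 2 in 4T1 and 5 in 4T1 against 4T07 scaffolds. In 4T07 scaffolds 5 were higher than in control and 0 lower, against 3.85% and 3.59% of all genes, and 3 passed without control scaffold 1 and by DESeq2.

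Cldn5 was at 17.7, 11.6 and 15.2 CPM in 4T07 scaffolds and at 3.57, 5.07 and 4.41 CPM in control, with no overlap (1.62, SE 0.30, adjusted p = 0.00266). The endothelial sum in these groups was 381 to 429 CPM and 386 to 425 CPM, which overlapped. Of its 8 genes, 1 was higher in 4T07 scaffolds and 0 lower. In 67NR and 4T1 scaffolds Cldn5 was at 7.21 to 9.79 CPM and 4.49 to 12.5 CPM and did not pass. Cldn15 was at 10.9, 10.6 and 9.79 CPM against 1.68, 3.8 and 4.56 CPM in control (1.47, SE 0.34, adjusted p = 0.0102). Cldn13 was at 40.9, 6.29 and 2.49 CPM against 0.629, 0.792 and 0.315 CPM (4.67, SE 1.02, adjusted p = 0.00777), with erythroid sums of 33.5 to 405 CPM in 4T07 and 6.14 to 12.2 CPM in control. The part of endothelial or erythroid cells in these scaffold differences was not tested.

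The first of the 4T07 scaffolds (number 22) had the highest Cldn13, erythroid, neutrophil (8083 CPM) and keratinocyte (145 CPM) levels of its group. Dsp was at 53.2 CPM in that library, at 13.8 and 5.75 CPM in the other 4T07 scaffolds, and at 2.73, 1.74 and 11.2 CPM in control, so the groups overlapped. It passed at 2.06 (SE 0.71, adjusted p = 0.0703) and no longer passed without library 22 (0.76, adjusted p = 0.526) or without control scaffold 1 or 2 (1.79 and 1.63, adjusted p = 0.216 and 0.22). The call was also lost by the DESeq2 Wald test (2.06, adjusted p = 0.103) and in an edgeR fit of the compared groups alone (2.04, adjusted p = 0.119). Dsg1a, the desmoglein of skin, was at 7.71, 0.590 and 0 CPM and had no count in control, and rests on the same library.

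Spleens were read as a stand-in for blood in the study. Here 1 of 32 tested genes was higher and 0 lower in 67NR than in control spleens, against 1.29% and 0.970% of all genes. In 4T07 spleens 7 were higher and 2 lower (8.26% and 10.3% of all genes), and in 4T1 spleens 4 were higher and 3 lower (9.84% and 10.0%). Between 4T1 and 4T07 spleens 0 were higher and 2 lower in 4T1 (0.838% and 1.50%). All these comparisons share groups. Without control spleen 8 the counts were 0 in 67NR and 4 in 4T1 spleens, and without control spleen 9 also 4 in 4T1 spleens. Cldn13 was at 55.1, 44.3 and 87.8 CPM in control, 172, 124 and 175 CPM in 67NR, 115, 135 and 220 CPM in 4T07 and 123, 119 and 115 CPM in 4T1 spleens. Every library of the tumor-bearing mice was above every control library, by 1.24 (SE 0.26, adjusted p = 0.0199), 1.51 (SE 0.26, adjusted p = 0.000453) and 1.19 (SE 0.26, adjusted p = 0.00253). Without control spleen 8 the 67NR call was lost (1.03, adjusted p = 0.154) and the 4T1 difference was just under the fold threshold (0.99, adjusted p = 0.0202). The erythroid sum was 896 to 1021 CPM in control, 1333 to 2062 CPM in 67NR, 2006 to 2217 CPM in 4T07 and 2279 to 2592 CPM in 4T1 spleens. The part of erythroid cells in the Cldn13 differences was not tested.

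Cldn15 was at 2.52, 6.23 and 4.10 CPM in control spleens, at 24.5, 15.9 and 29.2 CPM in 4T07 and at 27.1, 10.3 and 27.9 CPM in 4T1, with log2 fold changes of 2.61 (SE 0.39, adjusted p = 0.000128) and 2.62 (SE 0.39, adjusted p = 1e-04). The neutrophil sum rose in the same groups, from 947 to 1667 CPM in control to at least 11810 CPM in both. Pkp3 went the other way, at 42.7, 59.3 and 45.3 CPM in control, 12.1, 21.2 and 8.59 CPM in 4T07 and 11.7, 23.0 and 9.14 CPM in 4T1 spleens (-1.60, SE 0.33, and -1.50, SE 0.33). The B cell sum was 801 to 949 CPM in control, 336 to 436 CPM in 4T07 and 224 to 365 CPM in 4T1 spleens. The part of neutrophils or B cells in the Cldn15 and Pkp3 differences was not tested.

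Dsp was at 1.17, 1.85 and 0.862 CPM in control spleens, 9.47, 10.0 and 11.2 CPM in 4T07 and 4.31, 2.69 and 4.80 CPM in 4T1, with no overlap between the groups. It passed in 4T07 (3.14, SE 0.36, adjusted p = 1.32e-05) and in 4T1 (1.86, SE 0.40). The difference between 4T1 and 4T07 was -1.28 (SE 0.31, adjusted p = 0.0454), a call that was lost without 4T07 spleen 29 or 30 or 4T1 spleen 40 or 41 (-1.05 to -1.34, adjusted p = 0.124 to 0.147). Cldn9 had no count in control spleens and was at 18.9, 9.66 and 5.73 CPM in 4T07 spleens, at least 17.9-fold above the floor of the controls, while 4T1 spleens were at 0, 0.245 and 0.685 CPM (-4.99 for 4T1 against 4T07, SE 0.68, adjusted p = 0.00254). The 4T07 tumors, at 4.62, 1.27 and 0 CPM of Cldn9, lay below the 4T07 spleens without overlap, a difference that was not tested. Exocrine pancreas markers summed to 2.59 to 391 CPM in control, 0.824 to 268 CPM in 4T07 and 124 to 2287 CPM in 4T1 spleens. Alveolar and airway markers summed to 12.7 to 21.1, 54.7 to 101 and 17.6 to 30.8 CPM in these groups. The part of such tissue in the Dsp and Cldn9 differences was not tested. Cldn5 was at 9.59, 11.0 and 9.60 CPM in 4T1 against 21.4, 24.7 and 27.8 CPM in control spleens (-1.03, SE 0.19, adjusted p = 0.000564). Without control spleen 9 or 4T1 spleen 40 the Cldn5 difference was -0.99 or -1.0, just under the fold threshold. The endothelial sum was 262 to 393 CPM in 4T1 and 498 to 647 CPM in control spleens. As a share of that sum, Cldn5 was at 3.45, 2.81 and 3.66% in 4T1 and 4.29, 4.04 and 4.30% in control spleens. The part of endothelial cells in the Cldn5 difference was not tested.

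Whether the 4T1 tumor changed a gene differently in different tissues was tested as the difference of log2(4T1/control) between tissues, for 47 genes. Between lungs and scaffolds 0 passed by edgeR and by DESeq2 (8 at an unadjusted p under 0.05 by edgeR), where 0.896% of all genes were higher and 0.0900% lower. Between spleens and scaffolds 0 were higher and 1 lower in spleens (5.25% and 5.45% of all genes), and between lungs and spleens 2 were higher and 1 lower in lungs (5.97% and 5.53%). With single libraries left out these 3 counts ran over 0 to 1, 1 to 4 and 3 to 4. Cldn5, the endothelial claudin, passed in both of the latter. Its log2(4T1/control) was 0.89 in scaffolds, 0.22 in lungs and -1.03 in spleens, and the spleen value was lower than that of scaffolds by 1.92 (difference -1.92, SE 0.33, adjusted p = 0.000194) and than that of lungs by 1.23 (lungs minus spleens 1.23, SE 0.29, adjusted p = 0.00372). Of the 8 endothelial markers, 3 were lower in spleens than in scaffolds in the same test (median -0.76) and 5 higher in lungs than in spleens (median 1.08), and their part in the Cldn5 differences was not tested. The other 2 were Pkp3, at 0.82 in lungs and -1.50 in spleens, and Cldn1, a claudin of epidermis, at -0.80 in lungs and 1.46 in spleens.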

How the data were processed

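The 45 libraries, 3 in each of 15 groups, were QuantSeq 3′ mRNA libraries. The authors deposited 1 table of raw counts per gene symbol. Their processing notes name Trim Galore 0.5.0, STAR 2.6.0 and featureCounts. The genome build, the annotation and any collapsing of molecular identifiers are not given in the sources used here. Each column was matched to its sample by the library number in the labels. The 120 repeated symbols of 55487 rows were summed, which left 55367 symbols. Genes with more than 10 counts over a tissue were tested with edgeR 4.0.16 in R 4.3.3 (TMM factors, quasi-likelihood F test, Benjamini-Hochberg adjustment over all genes tested), with all groups of a tissue in 1 fit. Following the study's thresholds, a gene passed at a fold over 2 and an adjusted p below 0.05 (tumors) or 0.10 (other tissues). Contrasts between tissues used 0.05, and differences between tissues in log2(4T1/control) used 0.10 and a difference over 1. SE is the log2 fold change divided by the root of F. A fold against a group without counts used 3 counts per library as the floor, and ratios of 1 to 3 counts carry exact counting intervals, which cover counting error only.

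Genes were named if they passed with a mean of at least 5 CPM in a compared group (up to 12 by size in tumors and 6 elsewhere), led a tissue, or passed a difference between tissues. Some genes of these families are not reported here and are left out of the figures, while counts and sums over the 58 genes include them. Names beyond this rule, mostly of genes at lower levels, came from a look at the values. The gene families, lists and thresholds were chosen with earlier results of these data known. Alternatives were DESeq2 1.42.0, its size factors, 2 other count filters, fits of the compared groups alone, and each library left out in turn. The code was tested on simulated counts. No 2 libraries of a group were identical.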

Additional observations from a re-analysis of the deposited data

Results flagged for a closer look

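Results of 3 genes differed between tissues in their response to the 4T1 tumor by the test of the difference itself (edgeR's quasi-likelihood test of log2(4T1/control) in 1 tissue minus the other, adjusted p under 0.10 and a difference over 1). Of the 47 tested junction genes, 0 were higher and 1 lower in spleens than in scaffolds, where 5.25% of all genes were higher and 5.45% lower. Between lungs and spleens 2 were higher and 1 lower in lungs, against 5.97% and 5.53% of all genes. Junction genes thus did not pass more often than genes in general. No group has more than 3 libraries, so no search for single outlying libraries was made. Cldn5 differed between spleens and scaffolds by -1.92 (SE 0.33, adjusted p = 0.000194): 4T1 spleens were at 9.59, 11.0 and 9.60 CPM against 21.4, 24.7 and 27.8 CPM in control, and 4T1 scaffolds at 9.47, 12.5 and 4.49 CPM against 3.57, 5.07 and 4.41 CPM. Cldn5 also differed between lungs and spleens, by 1.23 (SE 0.29, adjusted p = 0.00372), with 4T1 lungs at 257, 258 and 228 CPM against 220, 205 and 218 CPM.

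Pkp3 differed between lungs and spleens by 2.30 (SE 0.55, adjusted p = 0.0047): it was at 15.5, 23.4 and 11.1 CPM in 4T1 and 11.2, 7.21 and 10.2 CPM in control lungs, and at 11.7, 23.0 and 9.14 CPM in 4T1 and 42.7, 59.3 and 45.3 CPM in control spleens. Cldn1 differed between lungs and spleens by -2.28 (SE 0.62, adjusted p = 0.0127), with 3.22, 2.26 and 4.80 CPM in 4T1 and 5.06, 7.21 and 5.83 CPM in control lungs, and 1.44, 1.47 and 1.14 CPM in 4T1 and 0.583, 0.692 and 0.431 CPM in control spleens, where the control level was near the floor of 3 counts. For all genes the median difference was -0.14 between spleens and scaffolds and 0.15 between lungs and spleens. Neutrophil markers, which moved in 4T1 spleens and lungs, were at 947 to 1667 CPM and 11810 to 30497 CPM in control and 4T1 spleens and at 266 to 1723 CPM and 1947 to 2937 CPM in control and 4T1 scaffolds. Of the 8 endothelial markers, 3 were lower in the test of spleens against scaffolds (median -0.76) and 5 higher in that of lungs against spleens (median 1.08). The part of these cell types in the differences was not tested.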

How the results depend on the processing

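Of 352 recomputed counts of junction genes past the threshold, 305 stayed within 1.5 times the reported count. Of the other 47, 24 came from leaving out a library, 16 from asking for at least 10 counts in every library, 4 from no filter and 3 from DESeq2. The filter of 10 counts left 5 to 18 of the 58 genes to test: 2, 5 and 5 passed in tumors (4T07 against 67NR, 4T1 against 67NR, 4T1 against 4T07), 2 in 4T07 scaffolds, 0, 8 and 0 in 67NR, 4T07 and 4T1 lungs and 7 between 4T1 and 4T07 lungs, 3 and 4 in 4T07 and 4T1 spleens and 0 between them, 9, 9 and 5 between control tissues (lungs and spleens, lungs and scaffolds, scaffolds and spleens), 3 between tumors and scaffolds, and 1 for the difference between lungs and spleens. Without any filter 1, 2 and 5 passed in 67NR, 4T1 and 4T1 against 4T07 scaffolds and 8 in 67NR lungs. The DESeq2 Wald test gave 3 in 4T07 scaffolds, 2 in 67NR lungs and 2 for the difference between spleens and scaffolds. The cause of the last 2 sets was not tested.

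With each library left out in turn, counts ran over 13 to 17, 18 to 20 and 12 to 16 in tumors, 0 to 0, 3 to 7, 0 to 0 and 0 to 0 in scaffolds (67NR, 4T07, 4T1, 4T1 against 4T07), 0 to 6, 15 to 24, 1 to 6 and 14 to 22 in lungs and 0 to 1, 6 to 12, 4 to 8 and 1 to 3 in spleens in the same order. Between control tissues they ran over 26 to 30, 22 to 26 and 14 to 18, between tumors and scaffolds over 15 to 17, and for differences between tissues over 0 to 1 (lungs and scaffolds), 1 to 4 (spleens and scaffolds) and 3 to 4 (lungs and spleens). Of 99 named gene comparisons, 87 kept their direction and threshold under every alternative that could be fitted, 12 lost the call under at least 1 and 0 reversed. The lost calls came from 26 leave-one-out fits, 1 DESeq2 fit and 1 fit of the compared groups alone. With TMM sizes in place of library totals, 19 of 209 levels moved by more than their SD, at most by 13.8%. No paired analysis was possible because library numbers are not shared between groups and the labels do not tie tissues to a mouse. Depth limits statements on genes under about 1 CPM, where 3 counts are 0.367 to 0.859 CPM.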
